A study of Mus musculus with 13 samples.

Results

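Slc1a2 encodes GLT-1, the glutamate transporter that astrocytes of the forebrain use to take glutamate out of the extracellular space. The Slc1a2 peak map consisted of all peaks of the deposited AGO peak table that carried the gene name Slc1a2. There were 77 such peaks among 18284 in the table, 0.421% of all peaks. Of these, 66 were annotated to the 3'UTR, 10 to the coding sequence (CDS) and 1 to an intron.

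The libraries came from cortex of wild-type C57BL6 mice aged 7 to 8 weeks. Ipsilateral libraries (n = 5) came from the hemisphere in which the middle cerebral artery had been occluded (MCAO) with a filament for 35 min, followed by 3 h of recovery. Contralateral libraries (n = 4) came from the opposite hemisphere of MCAO mice after the same time. Sham libraries (n = 4) came from mice anesthetized in the same way whose arteries were exposed with no filament put in. Each replicate number stood for a different day of surgery. The labels do not say whether ipsilateral and contralateral libraries of the same number came from the same animals, or how many animals went into a library. All libraries held pooled high and low molecular weight AGO complexes.

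Argonaute (AGO) proteins carry microRNAs (miRNAs) to target RNAs, mostly by pairing between the miRNA seed, bases 2 to 8 from its 5′ end, and a site in the target. AGO bound in 3'UTRs is known for lowering the stability and translation of the mRNA. CLIP crosslinks AGO to RNA with ultraviolet light and sequences the bound fragments, each called a tag here. In whole cortex, a change in tags on a transcript can come from the amount of the transcript, from the number of cells that make it, or from how much of it AGO holds, and these cannot be told apart here. The title of the series names glutamate homeostasis after ischemic stroke as its subject, and Slc1a2 is the main transporter of that process in cortex.

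Depth was low and uneven. Peak tags per library ranged from 3780 to 71027 and tags in exonic peaks (3'UTR, CDS, 5'UTR or unclassified exon) from 2871 to 29039, lowest in ipsilateral replicate 5. Slc1a2 itself had 68 to 629 tags per library. The 3 replicate 1 libraries stood apart, with 50.4% to 60.4% of their tags in introns or far from genes, against 17.5% to 44.2% in the other libraries. Levels are therefore given per 10000 exonic tags. At this scale the limit that a count of 0 allows (3 tags) lay between 1.03 and 10.4 per 10000, so that a single peak could go unseen in the smallest libraries. Intervals and limits cover counting error only. Cortical markers were present in the peaks: 9 of 12 neuron markers and 11 of 15 astrocyte markers had exonic tags, and Gfap, Aldh1l1, Gjb6 and Mlc1 had none.

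Slc1a2 was among the transcripts with the most AGO tags. Its 76 exonic peaks held 4595 tags over all libraries, 2.21% of the 208059 exonic tags of the table, and ranked 2 of 3417 genes. Above it stood only Zcchc4, which encodes an RNA methyltransferase, with 5907 tags in 1 peak that came mostly from the replicate 1 libraries. Below it came the nuclear noncoding RNA Malat1 (2753 tags in 7 peaks), the dendritic microtubule protein gene Map2 (1947 tags in 59 peaks) and the kinase gene Camk2a (1697 tags in 25 peaks). These are totals over transcripts of different length and are not levels per length. Slc1a2 had the most 3'UTR peaks of any gene, 66, followed by Psd3 with 46, Qk and Slc24a2 with 38 each, Prkcb with 36 and Kcna1 with 35.

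Peaks covered the long 3'UTR of Slc1a2 from end to end. In GENCODE M21 (GRCm38, the assembly of mm10) the gene lies on the plus strand of chromosome 2 from 102658659 to 102790784, and its longest model has 11 exons, a coding length of 1716 bases and a 3'UTR of 9250 bases in exon 11, at chr2:102781535-102790784. All 77 peaks were windows of 80 bases. The 66 windows in the 3'UTR covered 4957 bases of it, 53.6%, with centres a median of 115 bases apart (32 to 637). The first was centred 235 bases past the stop codon and the last 9122 bases past it. The longest stretch with no peak was 557 bases at chr2:102788583-102789139. A shorter model ends 209 bases past the stop codon, at 102781743, inside the window of the first 3'UTR peak. The other 65 3'UTR peaks lay past the end of that model. In the deposited annotation 33 of the 66 peaks carried the label 3'UTR alone and 33 carried 3'UTR and intron together. Those with both labels were centred between 334 and 4626 bases past the stop codon.

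Most Slc1a2 tags lay in the 3'UTR. Of its exonic tags 91.8% (4218) were in 3'UTR peaks and 8.20% (377) in CDS peaks, against 68.3% and 25.8% of the exonic tags of the whole table. Per 1000 bases of the longest model, the 3'UTR had 456 tags and the CDS 219.7, with 7.14 and 5.83 peaks. The single intron peak had 35 tags, 0.756% of the tags of the gene, whereas 30.3% of all peak tags in the table were intronic. A 3'UTR peak of Slc1a2 had a median of 58.5 tags over the 13 libraries and a CDS peak 28.5, against medians of 12 and 10 for such peaks in the table. Tags were spread widely: the 5 most tagged peaks held 18.3% of the exonic tags of the gene and the 10 most tagged held 30.2%. Across the 66 3'UTR peaks, tags had no trend with distance from the stop codon (Spearman rho 0.00010, over peaks that share libraries and partly overlap). Of the 77 windows 29 (37.7%) overlapped a neighbour, against 20.9% in the table, and a tag in an overlap may have been counted in both.

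**Figure D1:**
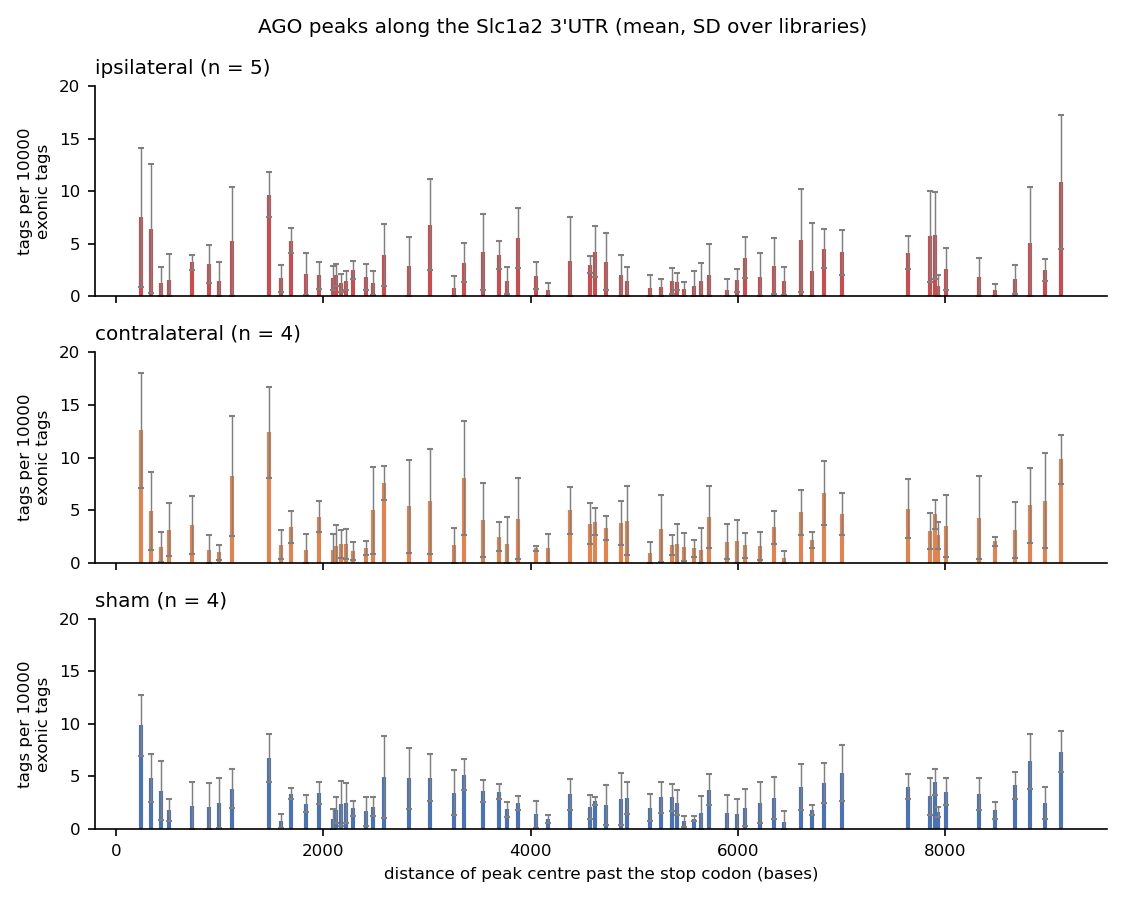
Level of each of the 66 Slc1a2 3'UTR peaks (vertical axis, tags per 10000 exonic tags; mean with SD over libraries, error lines not drawn below 0) by the distance of its centre past the stop codon in bases (horizontal axis), in ipsilateral (n = 5), contralateral (n = 4) and sham (n = 4) libraries from top to bottom. Peaks lie along the whole 3'UTR in all 3 groups, with high values near the start (235 and 1473 bases) and at the far end (9122 bases).

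The sites below show what lay under the peaks tested one by one, with the miRNAs that pair with them. Of 76 exonic Slc1a2 windows, all had transcript sequence, and 43 miRNA families common in brain were searched for matches to seed bases 2 to 8, or to bases 2 to 7 followed by A, on the transcribed strand only. The families of miR-124, miR-185, miR-320 and miR-485 were not searched. In the mature miRNAs (RefSeq, GRCm38.p6, matched by name), capitals mark the seed, bases 2 to 8.
miR-338-3p: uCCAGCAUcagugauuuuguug
miR-128-3p: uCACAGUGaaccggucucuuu
miR-218-5p: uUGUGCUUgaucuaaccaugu
miR-29a-3p: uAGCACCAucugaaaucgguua
miR-29b-3p: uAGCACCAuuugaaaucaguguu
miR-17-5p: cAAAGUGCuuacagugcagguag
miR-153-3p: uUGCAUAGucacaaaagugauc
The 2 members of the miR-29 family shown share 1 seed. In the Slc1a2 sequence (GENCODE M21 transcript, GRCm38, plus strand), capitals mark the bases that match the seed, including the A after it where present.
3'UTR peak 1, miR-338, chr2:102781779-102781785: tgaatggacgcTGCTGGAgaaactactttg
3'UTR peak 2, miR-128, chr2:102781842-102781848: tctcagtgcaaCACTGTGgatgctattttt
3'UTR peak 8, miR-218, chr2:102782653-102782659: ttgttatattaAAGCACAtgaaaaatatca
3'UTR peak 55, miR-29, chr2:102788559-102788565: gaataaaggccGGTGCTAatagcgggaccg
3'UTR peak 56, miR-17/20, chr2:102789209-102789215: acagtgcctatGCACTTTgtgtagctatca
3'UTR peak 56, miR-153, chr2:102789205-102789211: gaagacagtgcCTATGCActttgtgtagct
The miR-17/20 and miR-153 matches of 3'UTR peak 56 overlap each other. The other 6 tested peaks (3'UTR peaks 9, 21, 23, 54 and 66 and CDS peak 9) held no match of the families searched. A match is a description of the letters in the window and not a test of binding.

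Sites that matched bases 2 to 8 and were followed by A, the longest form searched, are shown because they are the fullest matches in the gene. There were 7 such 3'UTR peaks and 1 CDS peak. The miR-26 match lay in both 3'UTR peak 16 and 3'UTR peak 17, whose windows overlap.
3'UTR peak 5, miR-23, chr2:102782273-102782280: tgtgtgtgaaaAATGTGAAatttcaaattt
3'UTR peaks 16 and 17, miR-26, chr2:102783726-102783733: ggccacgtgggTACTTGAAcattgctcttt
3'UTR peak 27, miR-137, chr2:102785227-102785234: tcatgcaacaaAGCAATAAacccaagtagg
3'UTR peak 46, miR-132 and miR-212, chr2:102787400-102787407: acctaacaacaGACTGTTAtccttatcacc
3'UTR peak 50, miR-27, chr2:102787894-102787901: agagctggcaaACTGTGAAtctaattttat
3'UTR peak 65, miR-221 and miR-222, chr2:102790468-102790475: ggtctggtgtcATGTAGCAtagtgcgtcta
CDS peak 6, miR-186, chr2:102748479-102748486: ggtctgatcggATTCTTTAttgctttcggc
The letters of the miR-186 site run across the junction of exons 5 and 6, of which the site itself lies in exon 6. The miR-27 match of 3'UTR peak 50 also holds a miR-128 match in the same letters. These 3'UTR peaks had 27 to 76 tags each, none among the 5 most tagged.

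More Slc1a2 3'UTR peaks lacked these sites than held them. A match of at least 1 family was found in 28 of 66 Slc1a2 3'UTR peaks, 42.4%, against 45.1% of the 7253 3'UTR peaks of the table with sequence. The 28 peaks held 43.0% of the 3'UTR tags. The other 38 peaks held no site of the families searched, which did not include miR-124. Of the 60 sites in the whole 3'UTR, 33 (55%) lay within peak windows, which made up 53.6% of its length. That is 6.66 sites per 1000 bases in windows and 6.29 between them, so sites were about as dense under the peaks as outside them. A and U made up 58.4% of the covered bases and 56.6% of the uncovered ones.

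Sites of 22 of the 43 families occurred in Slc1a2 3'UTR peaks. The most frequent were those of miR-221 with miR-222, of miR-23, of miR-26 and of miR-338, each in 3 peaks (4.55%), against 1.19%, 2.33%, 2.48% and 1.09% of all 3'UTR peaks. For miR-26 and miR-338, 2 of the 3 peaks were overlapping windows on the same site. The miR-29 family had 2 sites in the Slc1a2 3'UTR, of which 1 lay in a peak window, that of 3'UTR peak 55. That is 1.52% of the Slc1a2 3'UTR peaks, against 1.67% of all 3'UTR peaks. Of the 21 families with no site in a Slc1a2 3'UTR peak, the 5 most common in the table were miR-129, miR-144, miR-9, miR-30 and miR-101, with sites in 4.27%, 2.43%, 2.33%, 2.32% and 2.21% of all 3'UTR peaks. With 66 peaks, 1 peak is 1.52%, so these shares were not tested against each other. Of the 10 CDS peaks 5 held a site, of miR-24, miR-22 or miR-186, against 46.6% of all CDS peaks.

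**Figure D2:**
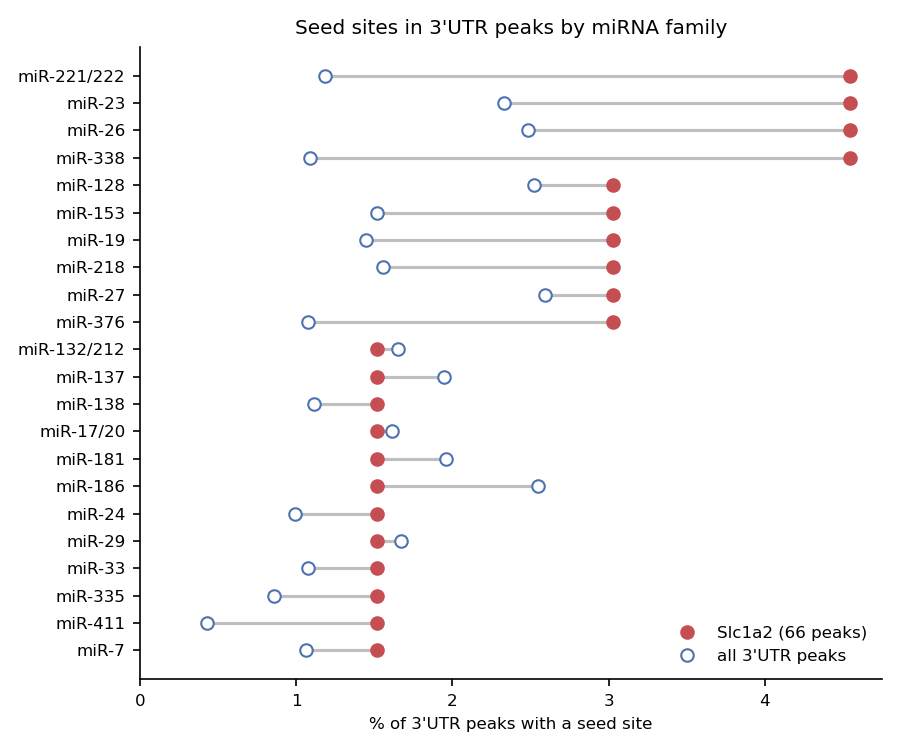
Share of 3'UTR peaks with a seed site (horizontal axis, percent) for each of the 22 miRNA families with a site in a Slc1a2 3'UTR peak (vertical axis). Filled points are Slc1a2 (66 peaks) and open points are the 7253 3'UTR peaks of the table with sequence. The shares of Slc1a2 step by 1.52, 1 peak each, and its highest is 4.55%.

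The AGO level on Slc1a2 as a whole did not differ between the groups beyond the spread of the libraries. Exonic tags per 10000 exonic tags were 132, 232, 241, 213 and 237 in ipsilateral replicates 1 to 5. They were 211, 241, 204 and 365 in contralateral replicates 1, 2, 4 and 5. In sham replicates 1, 2, 3 and 5 they were 195.3, 232, 203 and 248. Ipsilateral replicate 1 was the lowest of all and contralateral replicate 5 the highest, and the 3 groups overlapped. The means were 211 ± 45.5 ipsilateral (SD, n = 5), 255 ± 74.7 contralateral (SD, n = 4) and 219 ± 24.5 sham (SD, n = 4). An exact two-sided permutation test gave p = 0.889 for ipsilateral against sham, p = 0.444 for ipsilateral against contralateral and p = 0.457 for contralateral against sham. Adjusted over the 15 tests of this kind reported here (Benjamini-Hochberg), these were 0.889, 0.847 and 0.847. The smallest p possible was 0.0159 with 5 against 4 libraries and 0.0286 with 4 against 4.

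The same held in the fit across all genes. In edgeR's quasi-likelihood test on exonic gene sums the log2 fold change of Slc1a2 was -0.06 (SE 0.30) for ipsilateral over sham, -0.28 (SE 0.30) for ipsilateral over contralateral and 0.22 (SE 0.32) for contralateral over sham. The Benjamini-Hochberg adjusted p of this test was 0.975, 0.721 and 0.999. Of 449 genes tested 0.223%, 0% and 0% passed an adjusted p of 0.05. The 1 gene that passed, in ipsilateral against sham, was the heat shock gene Hspa1b (log2 fold change 6.33, SE 1.25, adjusted p 0.0363 in edgeR), which falls outside the rule for named genes. At an unadjusted p of 0.05, 41, 51 and 7 genes passed, and Slc1a2 was not among them. The direction of ipsilateral against sham turned without ipsilateral replicate 1, to 0.07, and without sham replicate 5, to 0.0056. That of contralateral against sham turned without contralateral replicate 5, to -0.0027. For ipsilateral against contralateral, leaving out contralateral replicate 5 gave -0.055 and leaving out ipsilateral replicate 1 gave -0.14, and the difference of levels, -44.3 per 10000 with all libraries, was then -7.84 and -24.5. Counted per 10000 3'UTR tags in place of exonic tags, the level of Slc1a2 3'UTR peaks differed by -37.0 for ipsilateral minus sham and by -81.2 for ipsilateral minus contralateral (exact permutation p 0.349 and 0.143). On that scale it was lower in ipsilateral than in contralateral libraries in 4 of 4 pairs of the same day. By the exonic level it was lower in 3 of 4, with a replicate block difference of -51.9 per 10000 (exact sign-flip permutation p 0.25). For ipsilateral minus sham the block difference of that level was -8.75 (exact sign-flip permutation p 0.75). With 4 pairs, the smallest exact sign-flip permutation p is 0.125. The Zcchc4 peak took up 10.1% of the exonic tags of ipsilateral replicate 1. With the Zcchc4 and Angel2 peaks out of the denominator, a step chosen after seeing the data, the level in ipsilateral replicate 1 was 150, still the lowest of the 13.

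Markers of astrocytes, the main source of Slc1a2 in cortex, are given beside its level. The summed level of the 11 astrocyte markers with tags was 92.2 to 127 per 10000 in ipsilateral libraries, 86.8 to 138 in contralateral libraries and 83.8 to 110.2 in sham libraries. It was 92.2 in ipsilateral replicate 1, the library lowest in Slc1a2, and 86.8 in contralateral replicate 5, the library highest in it. The neuron list was 169 to 354 in ipsilateral libraries, 335 to 360 in contralateral libraries and 294 to 346 in sham libraries. The oligodendrocyte lineage list (5 of 10 markers with tags) was 13.9 to 44.2 in ipsilateral libraries, 42.5 to 69.2 in contralateral libraries and 40.7 to 56.9 in sham libraries, with means of 34.2, 49.7 and 49.4. Its defining genes Mog, Mag, Olig1, Olig2 and Sox10 had no exonic tags. The list had 911 exonic tags over all libraries. In ipsilateral replicate 5 a count of 0 allows up to 10.4 per 10000, near the lowest ipsilateral value of 13.9. Pearson r with the Slc1a2 level over the 13 libraries was -0.10 for the astrocyte list. It was 0.59 for the neuron list and 0.56 for the oligodendrocyte lineage list. These r are descriptions over libraries that share days and depth. The part of cell makeup in the Slc1a2 levels was not tested.

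**Figure D3:**
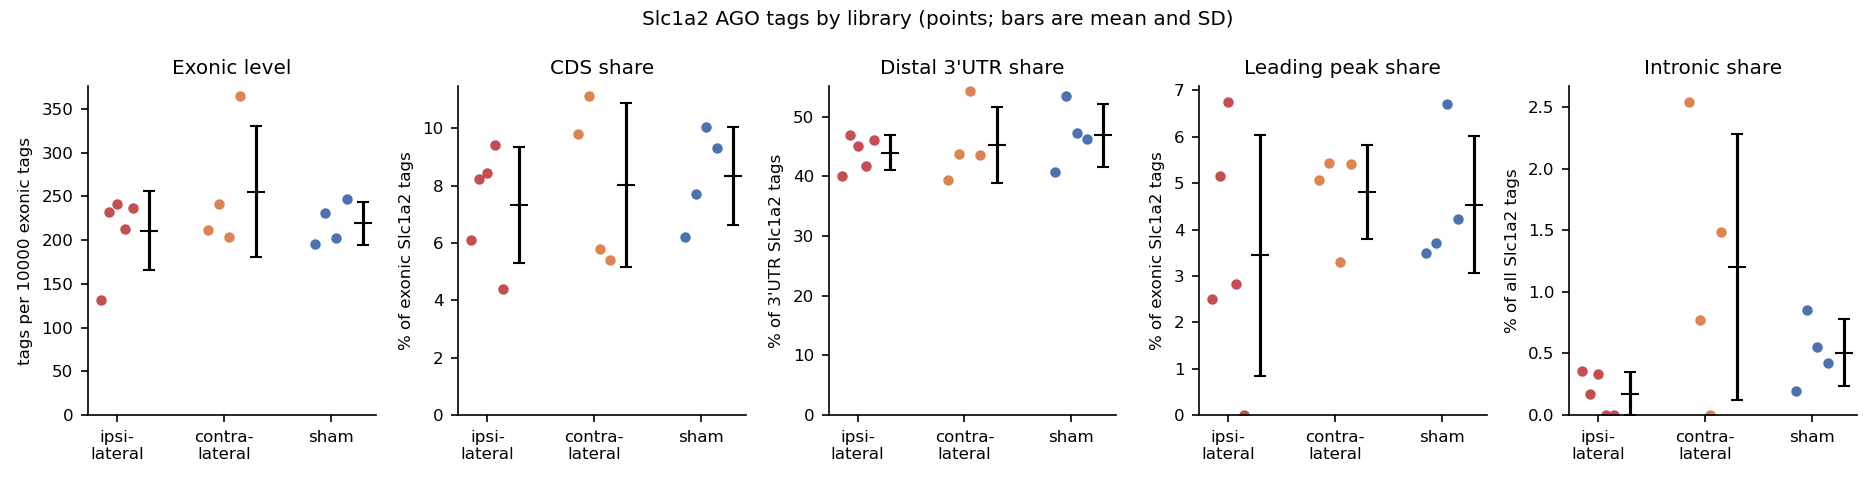
Slc1a2 AGO values by library (points) with mean and SD (bars, not drawn below 0), in ipsilateral (n = 5), contralateral (n = 4) and sham (n = 4) libraries. Panels from left to right show exonic tags per 10000 exonic tags, then, in percent of the Slc1a2 tags named on each axis, the CDS, distal 3'UTR, leading peak and intronic shares. The groups overlap in every panel.

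Tags were shared out along the gene in much the same way in the 3 groups. All 76 exonic peaks had at least 1 tag in each group. The tags of the peaks, pooled by group, had a Pearson r of 0.852 between ipsilateral and sham, 0.848 between ipsilateral and contralateral and 0.875 between contralateral and sham. Spearman rho was lower, 0.806, 0.777 and 0.796 in the same order. These r and rho are over 76 peaks, which are not replicates and partly overlap. Values between libraries of the same group are not given for scale. In pooled tags, to which deep libraries contribute most, 3'UTR peaks 1, 9 and 66 had the most tags in each group, with 3'UTR peak 1 first. By the mean level over ipsilateral libraries, 3'UTR peak 66 came first (10.9 ± 6.37 per 10000, SD, n = 5), then 3'UTR peak 9 (9.67 ± 2.14) and 3'UTR peak 1 (7.52 ± 6.58).

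The balance between the near and the far end of the 3'UTR did not pass a test. The distal share, the percent of 3'UTR tags in the 32 peaks past the midpoint between the first and the last peak, was 40.1%, 46.9%, 45.02%, 41.7% and 46.2% in ipsilateral replicates 1 to 5. It was 39.4%, 43.7%, 54.4% and 43.6% in contralateral replicates 1, 2, 4 and 5, and 40.7%, 53.6%, 47.2% and 46.3% in sham replicates 1, 2, 3 and 5. The 3 libraries of replicate 1 were the lowest of their groups, and the groups overlapped. The means were 44.0 ± 2.96% ipsilateral (SD, n = 5), 45.3 ± 6.39% contralateral (SD, n = 4) and 46.9 ± 5.28% sham (SD, n = 4). The exact two-sided permutation p was 0.286, 0.730 and 0.686 for ipsilateral against sham, ipsilateral against contralateral and contralateral against sham. Between libraries of the same day, the share was lower in ipsilateral than in sham libraries in 4 of 4 pairs (replicate block -2.38 percentage points, exact sign-flip permutation p 0.125, the smallest 4 pairs can give). The pairs ranged from 46.2% against 46.3% in replicate 5 to 46.9% against 53.6% in replicate 2. The difference of ipsilateral and sham means changed direction when the last of 3 equal parts of the span was taken as distal. The length of 3'UTR present was not measured, and its part in the distal share was not tested.

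By sections of 1000 bases, each of the 9 full sections held between 8.30% and 13.2% of the 3'UTR tags. The widest gap between ipsilateral and sham means was in bases 5001 to 6000, with 6.14 ± 2.85% in ipsilateral libraries (SD, n = 5) and 10.2 ± 3.00% in sham libraries (SD, n = 4). Values there were 3.08% to 9.04% in ipsilateral libraries and 7.88% to 14.2% in sham libraries, so the groups overlapped. This section was picked for its gap and was not tested.

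**Figure D4:**
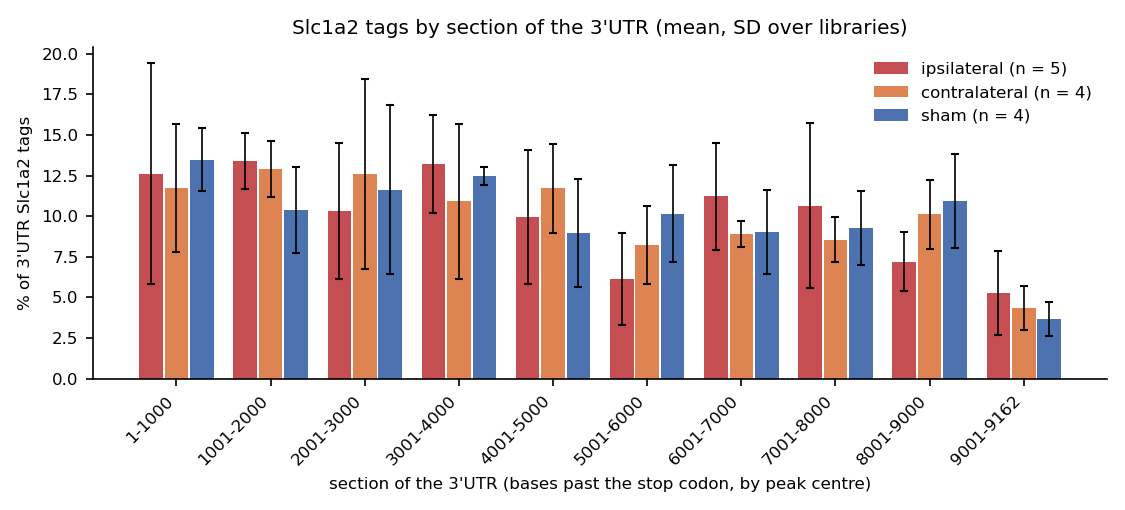
Percent of Slc1a2 3'UTR tags in each section of 1000 bases past the stop codon (horizontal axis, by peak centre; the last section is short and holds 1 peak) in ipsilateral, contralateral and sham libraries. Bars are means and lines the SD over libraries (n = 5, 4 and 4), and the SD lines of the groups overlap in most sections.

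Coding-sequence peaks lay in exons 2, 4, 5, 6, 7, 9 and 10, and 1 of them stood out. CDS peak 9, in exon 10 at chr2:102777490-102777569, had 134 of the 377 CDS tags, and the other 9 CDS peaks had 18 to 44 each. CDS peaks 3, 4 and 5 overlap Gm13872, a gene annotated on the opposite strand from 102737907 to 102746760, and the table gives no strand, so tags of the pair cannot be told apart there. The CDS share of the exonic tags was 6.09%, 8.23%, 8.45%, 9.43% and 4.41% in ipsilateral replicates 1 to 5. It was 9.79%, 11.1%, 5.79% and 5.42% in contralateral replicates 1, 2, 4 and 5, and 6.23%, 7.71%, 10.1% and 9.32% in sham replicates 1, 2, 3 and 5. The means were 7.32 ± 2.03% ipsilateral (SD, n = 5), 8.03 ± 2.86% contralateral (SD, n = 4) and 8.33 ± 1.71% sham (SD, n = 4). The groups overlapped, with an exact two-sided permutation p of 0.444, 0.667 and 0.829 for ipsilateral against sham, ipsilateral against contralateral and contralateral against sham.

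The intron peak gave the lowest p of the single values, though none passed. It lay at chr2:102779117-102779196, in the intron between exons 10 and 11 of the longest model. It had 1, 1, 2, 0 and 0 tags in ipsilateral replicates 1 to 5. In contralateral replicates 1, 2, 4 and 5 it had 16, 3, 0 and 5 tags, and in sham replicates 1, 2, 3 and 5 it had 1, 3, 1 and 2 tags. As a share of all Slc1a2 tags it was 0.173 ± 0.174% in ipsilateral libraries (SD, n = 5), 1.2 ± 1.08% in contralateral libraries (SD, n = 4) and 0.505 ± 0.274% in sham libraries (SD, n = 4). Ipsilateral values reached 0.357% and sham values started at 0.194%, so the groups overlapped. The exact two-sided permutation p was 0.0635 for ipsilateral against sham, 0.0952 for ipsilateral against contralateral and 0.286 for contralateral against sham, or 0.714, 0.714 and 0.847 adjusted over the 15 tests. The zeros allow up to 2.83% and 4.41% in ipsilateral replicates 4 and 5 and up to 2.48% in contralateral replicate 4. Leaving out sham replicate 1 gave an unadjusted p of 0.0357 by exact permutation for ipsilateral against sham, and leaving out contralateral replicate 4 gave 0.0357 for ipsilateral against contralateral, each the smallest the test then allows.

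Of the 77 peaks, 11 had enough tags for a test one by one: CDS peak 9 and 3'UTR peaks 1, 2, 8, 9, 21, 23, 54, 55, 56 and 66. They had 81 to 217 tags each and 1433 together, 31.2% of the exonic tags of the gene, and none overlapped another window. The other 66 peaks had up to 113 tags and did not pass the filter on low counts, which asks for a minimum in enough libraries. None of the 11 passed an adjusted p of 0.05 in any comparison in edgeR's quasi-likelihood test, where 0% of all 238 tested peaks did (0% in each of the 3 comparisons). No Slc1a2 peak was under 0.05 unadjusted either, against 5, 5 and 1 of the 238 peaks, and DESeq2 called none. The log2 fold changes lay between -0.53 and 0.89 for ipsilateral over sham (median 0.11), between -0.87 and 0.63 for ipsilateral over contralateral (median -0.31) and between -0.22 and 1.21 for contralateral over sham (median 0.47). Medians over all tested peaks were -0.11, 0.35 and -0.35. The standard errors were close to 1, with a biological coefficient of variation of 0.907, so only very large changes of a single peak could have been detected. A p that misses the threshold does not show that these peaks had equal levels.

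3'UTR peak 1, the leading peak at chr2:102781730-102781809, had 217 tags. Its level was 3.31, 11.9, 16.3, 6.02 and 0 per 10000 exonic tags in ipsilateral replicates 1 to 5. In contralateral replicates 1, 2, 4 and 5 it was 10.7, 13.1, 6.74 and 19.8, and in sham replicates 1, 2, 3 and 5 it was 6.84, 8.60, 13.6 and 10.5. The 0 in ipsilateral replicate 5, which had 68 exonic Slc1a2 tags, allows a level of up to 10.4. Its share of the exonic Slc1a2 tags was 3.45 ± 2.60% in ipsilateral libraries (SD, n = 5), 4.81 ± 1.02% in contralateral libraries (SD, n = 4) and 4.54 ± 1.48% in sham libraries (SD, n = 4). The exact two-sided permutation p for this share was 0.508, 0.397 and 0.8 in the 3 comparisons, in the order used above, and the groups overlapped. Between libraries of the same day it was lower in ipsilateral than in contralateral libraries in 4 of 4 pairs (replicate block -2.19 percentage points, exact sign-flip permutation p 0.125, again the smallest possible).

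3'UTR peak 9, at chr2:102782968-102783047, had 186 tags and no site of the families searched. Its level was 6.14, 11.9, 9.79, 10.0 and 10.4 per 10000 in ipsilateral replicates 1 to 5, against 7.98, 3.31, 7.92 and 7.87 in sham replicates 1, 2, 3 and 5. It was 7.23, 11.3, 13.5 and 17.6 in contralateral replicates 1, 2, 4 and 5. Ipsilateral replicate 1 lay within the sham values and the other 4 ipsilateral libraries lay above them. The log2 fold change was 0.79 (SE 0.94) for ipsilateral over sham and 1.12 (SE 0.98) for contralateral over sham, with an adjusted p in edgeR of 0.996 and 1.00. Leaving out 1 library gave 0.50 (without sham replicate 1) to 1.40 (without sham replicate 5) for the first and 0.77 (without contralateral replicate 5) to 1.74 (without sham replicate 5) for the second. DESeq2 gave 0.42 and 0.62.

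3'UTR peak 66, the last of the map at chr2:102790617-102790696, had 179 tags. Its level was 2.84, 5.97, 16.3, 12.04 and 17.4 per 10000 in ipsilateral replicates 1 to 5. It was 6.54, 10.0, 11.8 and 10.98 in contralateral replicates 1, 2, 4 and 5, and 9.12, 7.94, 4.53 and 7.87 in sham replicates 1, 2, 3 and 5. Ipsilateral libraries reached both below and above the sham values.

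3'UTR peak 21, at chr2:102784082-102784161, had 124 tags. Its level was 4.73, 2.39, 4.49, 8.03 and 0 per 10000 in ipsilateral replicates 1 to 5, against 9.99, 6.88, 6.74 and 6.59 in contralateral replicates 1, 2, 4 and 5. In sham replicates 1, 2, 3 and 5 it was 10.3, 3.31, 1.13 and 5.25. Of the ipsilateral libraries 4 lay below all contralateral ones and 1 lay among them. The 0 in ipsilateral replicate 5, counted among these 4, allows up to 10.4 per 10000, above every contralateral value. The log2 fold change for ipsilateral over contralateral was -0.87 (SE 0.98, adjusted p 0.981 in edgeR). Leaving out 1 library gave -1.31 (without ipsilateral replicate 4) to -0.65 (without ipsilateral replicate 5). The filter on low counts was met mainly in contralateral libraries, where the peak was high, so this comparison is not free of that choice.

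CDS peak 9 had a level of 3.31, 8.75, 6.93, 6.02 and 0 per 10000 in ipsilateral replicates 1 to 5. It was 4.48, 13.1, 1.68 and 7.69 in contralateral replicates 1, 2, 4 and 5, and 5.32, 6.62, 9.06 and 5.77 in sham replicates 1, 2, 3 and 5. The groups overlapped throughout.

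Among the peaks with a printed site, 3'UTR peak 8, with the miR-218 match, had 106 tags. Its level was 3.78, 3.58, 4.89, 0 and 13.9 per 10000 in ipsilateral replicates 1 to 5, 6.20, 6.88, 3.37 and 16.5 in contralateral replicates 1, 2, 4 and 5, and 3.80, 1.32, 4.53 and 5.77 in sham replicates 1, 2, 3 and 5. The log2 fold change was -0.85 (SE 1.00) for ipsilateral over contralateral and 1.21 (SE 1.04) for contralateral over sham, neither past the threshold in edgeR. Without contralateral replicate 5 these were -0.03 and 0.39. Over the 9 fits without 1 library in which the peak could be tested, they ranged from -1.19 to -0.03 and from 0.39 to 2.15, the highest without sham replicate 5. 3'UTR peak 2, with the miR-128 match, ranged from 0 to 16.1 per 10000 in ipsilateral libraries, from 0 to 8.79 in contralateral libraries and from 1.99 to 6.79 in sham libraries. Its log2 fold change for ipsilateral over sham was 0.89 (SE 1.01), against 0.34 in DESeq2 and 0.23 in edgeR with no filter on low counts. Leaving out 1 library gave 0.63 to 1.27 in the 9 fits that tested the peak. 3'UTR peak 2 met the filter on low counts mainly in ipsilateral libraries, so its comparison with sham is not free of that choice. The order of high and low libraries differed from peak to peak, and ipsilateral replicate 5, with the fewest tags, held both the highest and the lowest ipsilateral values of several peaks.

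3'UTR peak 55, at chr2:102788503-102788582, was the only Slc1a2 peak with a miR-29 site. It had 84 tags, with 5, 8, 6, 3 and 2 in ipsilateral replicates 1 to 5, 5, 10, 3 and 5 in contralateral replicates 1, 2, 4 and 5, and 12, 14, 3 and 8 in sham replicates 1, 2, 3 and 5. Its level was 4.20 ± 2.15 per 10000 in ipsilateral libraries (SD, n = 5), 4.63 ± 2.00 in contralateral libraries (SD, n = 4) and 5.35 ± 2.65 in sham libraries (SD, n = 4). The log2 fold change for ipsilateral over sham was -0.53 (SE 1.02, adjusted p 0.996 in edgeR). The levels of 3'UTR peaks 23, 54 and 56 ranged from 2.01 to 13.9 per 10000 in ipsilateral libraries, from 2.41 to 13.2 in contralateral libraries and from 2.26 to 7.92 in sham libraries.

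**Figure D5:**
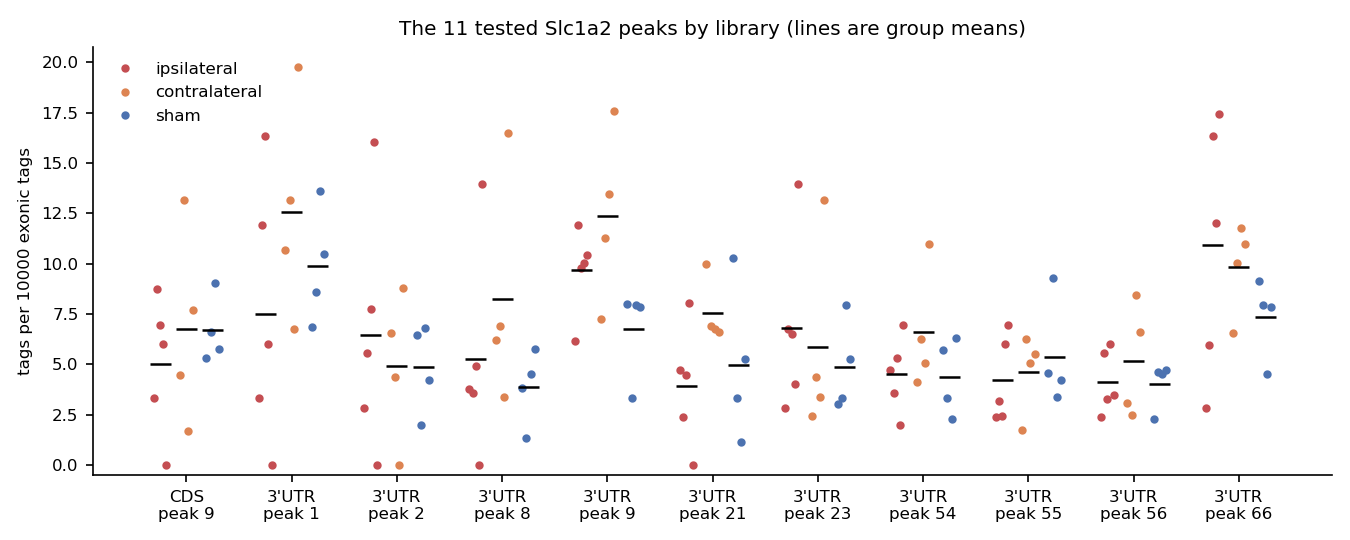
Levels of the 11 tested Slc1a2 peaks by library (points, vertical axis, tags per 10000 exonic tags), in ipsilateral (n = 5), contralateral (n = 4) and sham (n = 4) libraries from left to right within each peak, with group means as lines. Ipsilateral libraries range from 0 to 17.4 and the groups overlap in every peak.

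A shift of tags between peaks was tested as well. edgeR's diffSpliceDGE, which sets each peak against the other tested peaks of its gene, called none of the 11 peaks in any comparison, as it called 0% of the 70 peaks tested in genes with several peaks. The smallest unadjusted p among Slc1a2 peaks was 0.408, 0.368 and 0.460. The usage log2 fold changes ran from -0.82 to 0.61 for ipsilateral over sham, from -0.62 to 0.87 for ipsilateral over contralateral and from -0.75 to 0.68 for contralateral over sham.

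The miRNAs whose sites lay in the tested peaks did not pass a test in the miRNA counts of the same libraries. The 6 families with such sites had 12 members in the table, all tested, and none passed an adjusted p of 0.05 in edgeR, where 0% of 1427 miRNAs did in each of the 3 comparisons. At an unadjusted p of 0.05, 2, 1 and 1 of the 12 passed, against 35, 52 and 43 of the 1427. For ipsilateral over sham these were miR-29c-3p and miR-20b-5p, and in the other 2 comparisons miR-128-3p. DESeq2 called none of the 12. The median log2 fold change of the 12, in the same order of comparisons, was -0.12, -0.16 and 0.19, and that of all miRNAs -0.0052, 0.0013 and -0.01. Among the miR-29 family, miR-29b-3p had 25.6 ± 16.1 tags per 10000 miRNA tags in ipsilateral libraries (SD, n = 5), 20.2 ± 7.03 in contralateral libraries (SD, n = 4) and 24.7 ± 6.64 in sham libraries (SD, n = 4). miR-29a-3p averaged 11.1 in ipsilateral, 11.7 in contralateral and 12.6 in sham libraries, and miR-29c-3p 1.74, 2.34 and 4.54. Totals over all libraries ran from 50 to 5175 tags per miRNA, with a median of 172 and quartiles of 117 and 252 among 1705. The sources used here do not say how tags were assigned to miRNAs, so these levels, those of miR-29 included, may not reflect how much of each miRNA AGO held.

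Other genes of glutamate handling had far fewer AGO tags than Slc1a2. Of 24 listed genes, 16 had a peak and 15 an exonic one, with 1785 exonic tags together, and Slc1a2 alone had 4595, or 2.57 times as many. Of the 5 listed genes tested, none passed an adjusted p of 0.05 in either direction in any comparison in edgeR (0.223%, 0% and 0% of all genes passed). None was under 0.05 unadjusted. Their median log2 fold change was 0.08, 0.38 and -0.18, against 0.01, -0.01 and 0.03 over all 449 genes. These lists and genes were chosen with earlier results of these data known.

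Glul, the glutamine synthetase of astrocytes, had the most tags of the list (674 in 16 peaks). Its level was 29.4 ± 7.82 per 10000 in ipsilateral libraries (SD, n = 5), 41.0 ± 8.25 in contralateral libraries (SD, n = 4) and 30.3 ± 2.75 in sham libraries (SD, n = 4). Its log2 fold change was -0.07 (SE 0.24) for ipsilateral over sham, -0.49 (SE 0.24) for ipsilateral over contralateral and 0.42 (SE 0.25) for contralateral over sham. Slc17a7, the vesicular glutamate transporter of cortical neurons, had 12.8 ± 4.75 in ipsilateral libraries (SD, n = 5), 8.86 ± 4.49 in contralateral libraries (SD, n = 4) and 9.77 ± 5.37 in sham libraries (SD, n = 4). Slc1a3, the other astrocyte glutamate transporter (GLAST), had 78 tags in 5 peaks and was too low to test, as was Glud1, the glutamate dehydrogenase (78 tags in 3 peaks). Slc1a1, which encodes a neuronal glutamate transporter, had no peak.

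The genes whose exonic level was most like that of Slc1a2 over the 13 libraries, among 214 others with at least 200 exonic tags, were Gria2, Kif5a, Arhgap32, Sptbn1 and Zfp365. Their Pearson r with Slc1a2, on log2 of tags per 10000 plus 1, was 0.902, 0.808, 0.786, 0.751 and 0.697, against a median of 0.215 over the 214. Without ipsilateral replicate 1 and contralateral replicate 5, the libraries farthest from the median of Slc1a2, r was 0.496, 0.368, 0.816, 0.168 and 0.123. Pearson r of Gria2, Kif5a, Sptbn1 and Zfp365 thus fell, and Arhgap32 then ranked 1. Leaving out the extremes of Slc1a2 narrows its range, which can by itself lower r. Spearman rho over all 13 libraries was 0.736, 0.555, 0.890, 0.538 and 0.445, in the same order of genes. All these r and rho are descriptions over libraries that share days and depth.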

How the data were processed

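AGO CLIP was done on 13 cortex libraries with a bromodeoxyuridine capture cloning method, per the labels' protocols. The authors deposited raw counts of tags, one table by AGO peak and one by miRNA. The build mm10 and the aligner Novoalign are named in the submitters' processing notes, with no version. Neither the peak caller nor the handling of duplicates is given in the sources used here. Uncollapsed duplicates would make tags dependent on each other. The peak with the fewest tags has 3, so weaker peaks may have been dropped earlier. No column was left unmapped.

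One of 18285 rows, with 44 tags and no position, was left out. A region class is the first label of the deposited annotation. Coordinates count from 1. Gene models and transcript sequence came from GENCODE M21 (GRCm38) and miRNAs from the RefSeq table. Of 47 miRNA families 43 were searched, with miR-124, miR-185, miR-320 and miR-485 not searched, in 7253 3'UTR and 3693 CDS peaks with at least 50 bases of transcript.

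Tests were two-sided. edgeR 4.0.16 in R 4.3.3 fitted quasi-likelihood models over all 13 libraries with filterByExpr and Benjamini-Hochberg adjustment over all features tested. For peaks and miRNAs the library size was all peak tags or all miRNA tags, with TMM factors, and for gene sums it was the exonic tags of a library. DESeq2 1.42.0 was an alternative. The fits were tried on simulated data. For peak usage the simulation had less noise and higher counts than the libraries, so it does not show what shift could have been detected here. Single values per library were compared by exact permutation.

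Replicate numbers mark days of surgery, so they pair libraries by design. The main fits and permutation tests did not use this pairing, and a replicate block was run as an alternative. Over 215 genes, deviations from the group mean had a correlation of -0.04 to 0.71 between libraries of the same number and -0.63 to 0.38 between others. Deviations within a group sum to 0, so a high value for libraries of the same number by itself pulls the others down.

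Peaks named are those that passed the filter, the 5 exonic and 3 intronic with the most tags (there was 1 intronic), those with a miR-29 site (the rule also names miR-124, which could not be applied) and the 2 with the lowest p in each comparison. Genes named are 6 of the glutamate list (1 of them not reported here), any listed gene past the threshold, the 5 most like Slc1a2 and the 3 next above and below it in tags. The members and lists were chosen with earlier results of these data known.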

Additional observations from a re-analysis of the deposited data

Results flagged for a closer look

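Ipsilateral replicate 1 had the lowest Slc1a2 level of its group, 132 tags per 10000 exonic tags, far from the other 4 libraries. In the same library the astrocyte marker list was at 92.2 per 10000, and 60.4% of its tags lay in introns or far from genes. 3 peaks had 1 library far from the others of its group: 3'UTR peak 9 was at 3.31 per 10000 in sham replicate 2, 3'UTR peak 21 at 9.99 in contralateral replicate 1 and 3'UTR peak 56 at 2.28 in sham replicate 1. In all, 4 of 51 groups of values had such a library, and chance gives about 1 in 20.

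A peak with no gene name, annotated as upstream of a gene, held 20 tags at chr2:102658539-102658618, ending 41 bases before the start of Slc1a2. It had 4, 2, 1, 0 and 0 tags in ipsilateral replicates 1 to 5, 7, 0, 0 and 0 in contralateral replicates 1, 2, 4 and 5, and 4, 0, 2 and 0 in sham replicates 1, 2, 3 and 5. It is not a member of the map and enters no comparison.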

How the results depend on the processing

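Of 356 values recomputed under other settings for the 24 results that have a direction, 328 kept their direction and their side of the threshold and 26 changed direction, none of them past the threshold; the cause was not tested. The other 2 were the intronic shares of p = 0.0357 by exact permutation given above. The 356 values include peaks picked for their lowest p and fits that left out a library of neither group compared. They also share libraries with each other, so 328 is not a measure of how stable the directions are. None of the 24 results passed the threshold with the main settings. The 12 counts of calls were 0 under each of their settings, which says nothing about direction. With replicates 2 to 5 only, ipsilateral minus sham became 0.021 (log2) for the gene sum and 3.48 per 10000 for the level, the CDS share of ipsilateral minus contralateral became 0.182 percentage points, and the leading peak share of contralateral minus sham became -0.163. With all peak tags as the library size, ipsilateral minus sham became 0.16 (log2) and 15.0 per 10000, whereas per 10000 3'UTR tags it became -37.0. With the last of 3 equal parts of the span of 3'UTR peaks as distal, the distal share became 0.435 for ipsilateral minus sham and 1.33 for ipsilateral minus contralateral. Counting 8mers only left 7 3'UTR peaks with a site. Leaving out 1 library at a time gave ranges of -0.11 to 0.074 (gene sum, ipsilateral minus sham), -0.37 to -0.055 (gene sum, ipsilateral minus contralateral), -0.0027 to 0.31 (gene sum, contralateral minus sham), -16.3 to 11.5 (level, ipsilateral minus sham), -61.4 to -7.84 (level, ipsilateral minus contralateral) and -0.473 to 53.1 (level, contralateral minus sham). For shares, in percentage points, the ranges were -0.436 to -0.218 (intronic, ipsilateral minus sham), -1.43 to -0.579 (intronic, ipsilateral minus contralateral), -1.58 to 0.325 (CDS, ipsilateral minus contralateral), -1.33 to 0.575 (CDS, contralateral minus sham), -3.28 to 1.71 (distal, ipsilateral minus contralateral), -4.66 to 0.582 (distal, contralateral minus sham) and -0.0789 to 0.988 (leading peak, contralateral minus sham).

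With the replicate block, the CDS share of contralateral minus sham became 1.03 percentage points, and no call changed. Contralateral libraries were above sham libraries of the same day in 3 of 3 pairs for the level and the leading peak share and below them in 3 of 3 for the distal share, where the smallest exact sign-flip permutation p is 0.25. Such pairs were counted for every measure and comparison, and most counts given are those in which all pairs went the same way. Depth limits single peaks, which had few tags: ipsilateral replicates 4 and 5 and contralateral replicate 4 had 68 to 121 Slc1a2 tags each.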
